A study of Homo sapiens and Mus musculus with 13 samples.

Results

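The EGF ligands and their ERBB receptors were followed in RNA-Seq of MDA-MB-231 cells with TRIM11 or KDM5C knocked down and of mammary tumors from Trim11+/- mice. The 9 members were taken by symbol, with 5 ligands (AREG, EREG, HBEGF, TGFA and BTC) and 4 receptors (EGFR, ERBB2, ERBB3 and ERBB4). All 9 had a row in each table, among 24523 human and 55228 mouse symbols. Levels are given in FPKM, fragments counted relative to the length of the gene and to the total of the library, and a mean of at least 0.5 FPKM was reached by 7 of 9 members in cells and 8 of 9 in tumors. ERBB4 and BTC in cells and Ereg in tumors were under this level and were not tested.

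MDA-MB-231 is a breast cancer cell line. All of its libraries came from cells infected with lentivirus carrying Cas9 and a guide RNA and selected with puromycin. The 1 Control library carried a guide against GFP. TRIM11-KD1 and TRIM11-KD2 carried TRIM11 guides 1 and 2, KDM5C-KD1 and KDM5C-KD2 carried KDM5C guides 1 and 2, and the double knockdowns DKD1 and DKD2 carried TRIM11 guides 1 and 2, each with KDM5C guide 2. The tumors came from 3 Trim11+/+ and 3 Trim11+/- mice aged 3 months, 1 tumor library a mouse. These mice were hybrids of C57BL/6N and a strain labelled FVB/N-Tg (MMTV-PyVT) 634Mul/J. The number in that name runs from 634 to 639 over the 6 mice, so which number holds is in doubt. Every tumor, wild type included, was thus driven by the polyoma middle T antigen under the mouse mammary tumor virus promoter, which acts mainly in mammary epithelium. The Trim11+/- mice had exons 2 to 6 of 1 Trim11 allele deleted in all tissues with CRISPR/Cas9. Nothing in the labels says that the 2 lines of a knockdown were separate infections of separate cultures beyond their guides, so p-values measure the spread between these libraries.

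EGFR, ERBB2, ERBB3 and ERBB4 are receptor tyrosine kinases of the plasma membrane that act as dimers. AREG, EREG, HBEGF, TGFA and BTC are made as membrane proteins, are cut off by ADAM proteases and bind EGFR, and EREG, HBEGF and BTC also bind ERBB4. ERBB2 has no known ligand, and ERBB3 has a weak kinase and binds neuregulins, so both signal with a partner. Active receptors drive the RAS to ERK and PI3K pathways, and ERK in turn induces inhibitors of its own pathway such as the Sprouty proteins and the phosphatase DUSP6. In the mammary gland Areg is made by hormone-sensing luminal cells and drives growth of the ducts.

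The targeted genes were examined first. TRIM11, the ubiquitin ligase, measured 12.6 FPKM in Control, 13.4 in TRIM11-KD1, 10.6 in TRIM11-KD2, 16.1 in DKD1 and 9.38 in DKD2. Its mRNA was thus below Control with TRIM11 guide 2 and above it with guide 1, and the libraries with guide 1 are called the libraries labelled TRIM11-KD1 and DKD1 from here on. The paper's methods state that the knockdown lines were checked by western blotting. Protein was not measured in the RNA-Seq, so these mRNA levels do not say whether a knockdown failed. KDM5C, the H3K4 demethylase, measured 30.3 FPKM in Control, 20.6 and 21.4 in the KDM5C-KD lines, 18.8 and 22.7 in the DKD lines, and 29.8 and 28.4 in the TRIM11-KD lines. In tumors Trim11 was 37.1 ± 1.84 FPKM (SD, n = 3) in Trim11+/+ and 23.2 ± 0.660 in Trim11+/-, with no overlap. Kdm5c was 27.7 ± 2.62 and 24.1 ± 0.647 FPKM, also without overlap, at 24.7 and 24.5 where the groups came nearest. Of all genes, 6.78% were lower in every Trim11+/- than in every Trim11+/+ tumor. The exact permutation test gave p = 0.1 for both genes, the smallest p that 3 against 3 tumors allow. By quantitative RT-PCR the paper reports no effect of Trim11 deficiency on Kdm5c mRNA in tumors. The cell lines matched their label in VIM, at 1038 to 1309 FPKM, in PGR, listed at 0 in all 7 libraries, and in ESR1, at 0 to 0.0234 FPKM. CD44, CAV1 and AXL, also listed as present, were at 188 FPKM or more. The other markers listed as low were detected, with GATA3 at 4.41 to 8.92 FPKM, CLDN3 at 1.88 to 8.16 and CDH1 at 0.615 to 1.98.

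AREG stood apart from the other members in cells. Its level was 6.08 FPKM in Control. It reached 24.1 FPKM in the library labelled TRIM11-KD1, 16.5 in TRIM11-KD2, 13.1 in KDM5C-KD1, 16.7 in KDM5C-KD2, 19.1 in the library labelled DKD1 and 10.1 in DKD2. All 6 knockdown libraries lay above Control. The ratios to Control were 3.97 and 2.71 in TRIM11-KD, 2.15 and 2.75 in KDM5C-KD, and 3.14 and 1.66 in DKD. Of all 12636 genes tested, 1.16% were at least 1.5 times above Control in all 6 knockdown libraries, and AREG was the 1 member among these. Control is 1 library, shared by every such ratio, so its error is not known and no p is given. AREG (ENSG00000109321) lies at chr4:75310853-75320722 of hg19 on the plus strand. That build also carries AREGB, a copy at chr4:75480629-75490486 with 99.6% identity to AREG over 9876 aligned bases, so reads of AREG could be split between both places. A second AREG row of the table was at 0.0494 FPKM in Control and listed at 0 in the other libraries.

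EREG, which encodes epiregulin and lies 56386 bases before AREG at chr4:75230862-75254466, followed AREG in some lines. EREG was at 3.87 FPKM in Control, 11.8 in the library labelled TRIM11-KD1, 3.57 in TRIM11-KD2, 7.06 in KDM5C-KD1, 6.66 in KDM5C-KD2, 9.95 in the library labelled DKD1 and 0.717 in DKD2. Both libraries with TRIM11 guide 1 were the highest for EREG, at 3.04 and 2.57 times Control, and both with TRIM11 guide 2 were below Control, at 0.923 and 0.186 times. The KDM5C-KD lines differed little from each other, at 1.83 and 1.72 times Control. EREG had the widest range of the members over the 7 libraries, 2.89 on the log2(FPKM + 1) scale. Among 11774 genes with a mean of at least 1 FPKM, the 3 whose pattern was most like it were a row for LOC100130872 and SPON2, CPNE7 and TRIM61, with root mean square differences of 0.42, 0.45 and 0.46 log2 units over the 7 libraries. CPNE7, for example, was at 4.41 FPKM in Control and 0.568 in DKD2, and TRIM61 at 1.19 and 0.153.

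The promoters of AREG and EREG are printed because, of the 7 tested members, these neighbouring genes were the furthest above Control. They are RefSeq sequences of GRCh38.p14, a later build than that of the expression values, from 250 bases before to 50 bases after the start of each gene, at chr4:74444886-74445185 for AREG and chr4:74364895-74365194 for EREG, both on the plus strand. Capitals mark matches on either strand to the cyclic AMP response element (CRE, searched as TGACGTCA), to its shorter form (TGACG), which lies inside the full element, to the TATA box (TATAAA) and to the box named CCAAT.
AREG: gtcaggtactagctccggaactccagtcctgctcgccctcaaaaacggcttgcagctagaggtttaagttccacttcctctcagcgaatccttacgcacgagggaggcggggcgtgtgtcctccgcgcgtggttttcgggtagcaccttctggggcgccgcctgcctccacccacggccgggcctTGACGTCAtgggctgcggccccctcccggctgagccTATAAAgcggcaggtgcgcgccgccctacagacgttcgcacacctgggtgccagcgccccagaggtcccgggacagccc
EREG: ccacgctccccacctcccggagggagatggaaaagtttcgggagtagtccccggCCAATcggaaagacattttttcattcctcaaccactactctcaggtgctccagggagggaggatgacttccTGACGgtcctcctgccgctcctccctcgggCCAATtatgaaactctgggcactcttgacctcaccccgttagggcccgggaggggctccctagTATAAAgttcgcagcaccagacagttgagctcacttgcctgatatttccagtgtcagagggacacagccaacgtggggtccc
The AREG promoter held the full CRE at position -65 from the start and the TATA box at -29. The EREG promoter held the shorter form at -125, the CCAAT box at -196 and -95 and the TATA box at -32. Of 35116 human promoters of this length, 1.85% held the full CRE, 24.6% the shorter form, 11.5% the TATA box and 34.6% the CCAAT box. Other members held some of them too. A TGFA promoter had the shorter form of the CRE, the second of 2 EGFR promoters had the TATA box at 2 places and ERBB2 had the CCAAT box, while HBEGF and BTC held none of these motifs. These matches are descriptions of the letters, and factor binding was not measured here.

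**Figure D1:**
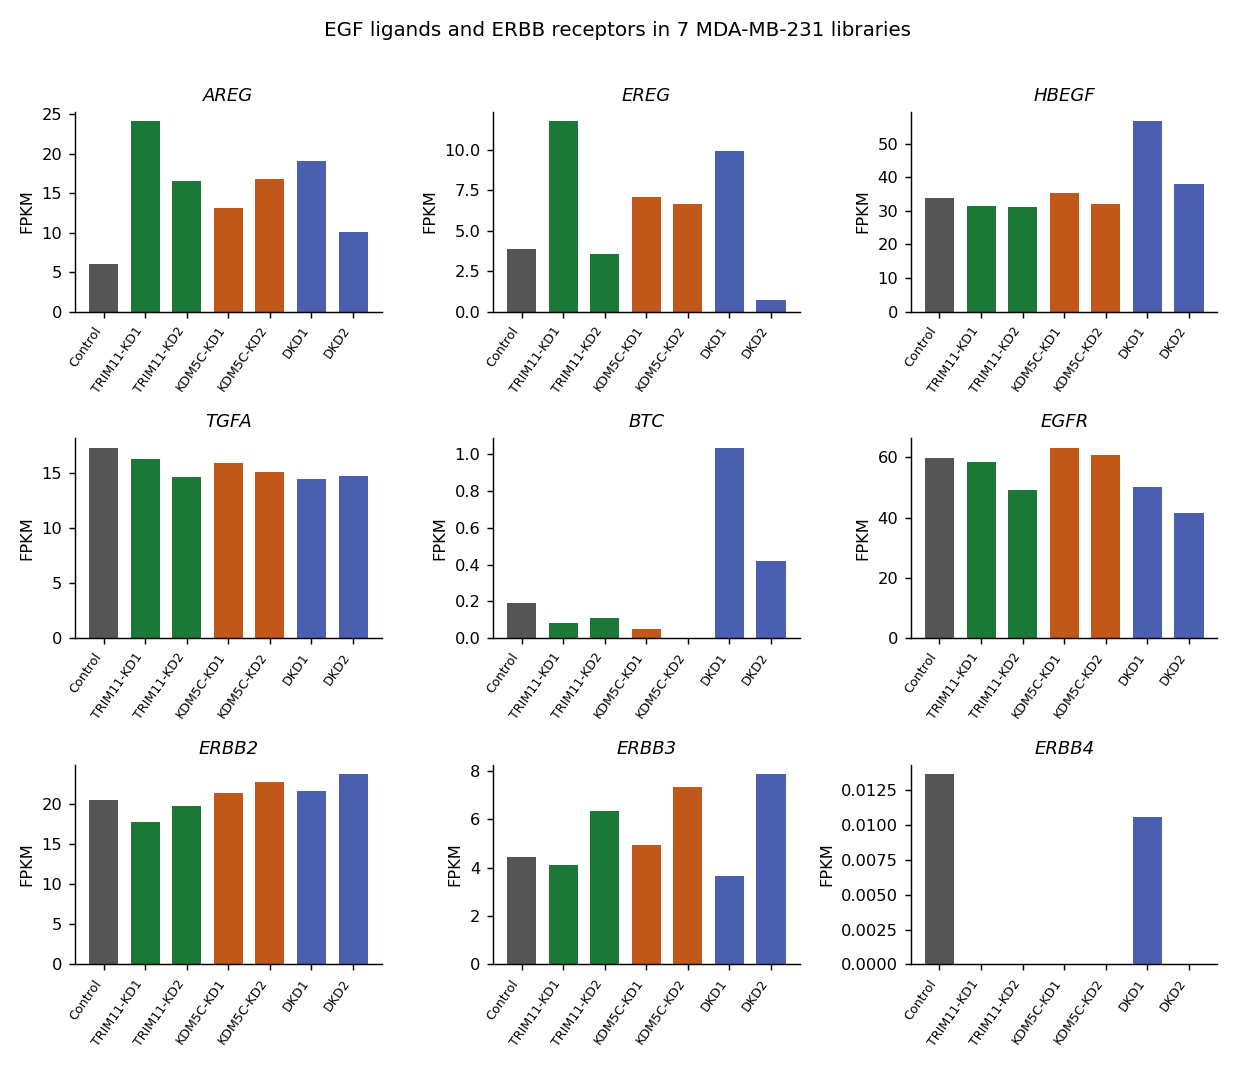
FPKM of the 9 members (vertical axes from 0, a scale for each gene) in the 7 MDA-MB-231 libraries, 1 bar a library, with Control in grey, TRIM11-KD in green, KDM5C-KD in orange and DKD in blue. AREG is lowest in Control at 6.08, EREG ranges from 0.717 to 11.8, and BTC is highest in the DKD lines, at 1.04 and 0.422.

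HBEGF, the heparin-binding ligand, had the highest level of the ligands, with 33.9 FPKM in Control, 31.3 in both TRIM11-KD lines, 35.3 in KDM5C-KD1, 32.0 in KDM5C-KD2, 56.7 in the library labelled DKD1 and 38.1 in DKD2. Only the library labelled DKD1 stood out, at 1.67 times Control. TGFA was at 17.3 FPKM in Control and at 14.5 to 16.3 in the 6 knockdown libraries, all below Control, as were 16.1% of all genes tested, and none by 1.5 times. BTC was at 0.189 FPKM in Control, 0.0843 and 0.108 in TRIM11-KD, 0.0482 and 0 in KDM5C-KD, 1.04 in the library labelled DKD1 and 0.422 in DKD2. The DKD lines were thus 5.47 and 2.23 times Control for BTC, and the other knockdown lines were below Control. BTC was under the level for testing, and the depth of the cell line table is unknown, so no counting error can be given for it. By the levels in FPKM, HBEGF did not overlap with any other ligand over the 7 libraries, while TGFA and AREG, AREG and EREG, and EREG and BTC overlapped in range.

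The receptors kept 1 order in all 7 libraries, EGFR over ERBB2 over ERBB3 over ERBB4, and their ranges did not overlap. EGFR measured 60.0 FPKM in Control, 58.4 and 49.3 in the TRIM11-KD lines, 63.3 and 60.8 in the KDM5C-KD lines, and 50.1 and 41.7 in the DKD lines. Neither DKD line reached the level of a KDM5C-KD line, but the share of all genes with lines so separated was not counted. ERBB2, the co-receptor, ranged over 17.8 to 23.7 FPKM with Control at 20.5. ERBB3 was at 4.44 FPKM in Control and at 4.12 in the library labelled TRIM11-KD1, 4.94 in KDM5C-KD1 and 3.66 in the library labelled DKD1, but at 6.37, 7.36 and 7.87 in TRIM11-KD2, KDM5C-KD2 and DKD2. Every line numbered 2 was above every line numbered 1 for ERBB3, whichever gene was targeted. The share of all genes that split by line number was not counted. NRG1, a neuregulin, split by it in the other direction, at 8.12 to 12.4 FPKM in the lines numbered 2 and 18.1 to 20.0 in those numbered 1. ERBB4 was at 0.0136 FPKM in Control, 0.0106 in the library labelled DKD1 and listed at 0 in the other 5. EGFR-AS1 overlaps an exon of EGFR, and MIEN1 and PGAP3 overlap ERBB2, each on the opposite strand, and the libraries did not keep the strand, so their reads cannot be told apart there. ENSG00000257411 overlaps an exon of ERBB3 on the same strand, and its reads could be shared with ERBB3.

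Counted against Control over the 7 tested members, AREG was the 1 member at least 1.5 times higher in both TRIM11-KD lines, where 3.25% of all genes were. AREG and EREG were the 2 in KDM5C-KD, where 5.22% of genes were higher, and AREG was the 1 in DKD, where 5.71% were. No tested member was at least 1.5 times lower in both lines of a knockdown, as were 2.58% of genes in TRIM11-KD, 3.97% in KDM5C-KD and 4.87% in DKD. BTC and ERBB4, under the level for testing, are not counted here. BTC was at 0.445 and 0.568 times Control in TRIM11-KD and at 5.47 and 2.23 times in DKD. Without the library labelled TRIM11-KD1, AREG was still 2.71 times Control in TRIM11-KD2, and without the one labelled DKD1 it was 1.66 times Control in DKD2.

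**Figure D2:**
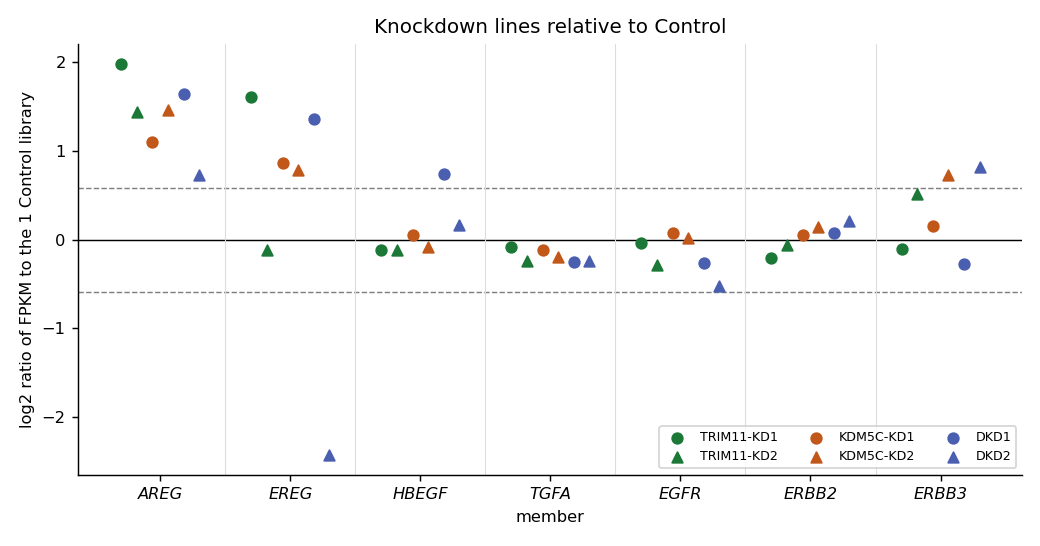
log2 ratio of FPKM in each knockdown line to the 1 Control library (vertical axis) for the 7 tested members (horizontal axis), with circles for lines numbered 1 and triangles for lines numbered 2. Dashed lines mark 1.5 times above and below Control. The 6 AREG points lie above the upper line, at ratios of 1.66 to 3.97, while EREG spreads from 0.186 to 3.04 times.

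The knockdowns were then set against each other with limma on log2(FPKM + 1) over the 6 knockdown libraries. KDM5C-KD against DKD asks whether a member differs when TRIM11 is targeted beside KDM5C. Both DKD lines carry KDM5C guide 2, whereas KDM5C-KD has guides 1 and 2. TRIM11 targeting and the KDM5C guide are thus partly mixed there. DKD against TRIM11-KD asks the same for KDM5C targeted beside TRIM11. Its lines share TRIM11 guides by number, and the main fit did not pair them. TRIM11 mRNA itself was at 13.6 and 14.2 FPKM in the KDM5C-KD lines, below the 16.1 of the library labelled DKD1 and above the 9.38 of DKD2. A gene was called where its mean FPKM differed by at least 1.5 times and the unadjusted p was under 0.05. Between KDM5C-KD and DKD, 0 of 7 members were called, against 3.41% of all genes higher and 3.33% lower in KDM5C-KD. EGFR was nearest, with means of 62.0 ± 1.75 in KDM5C-KD and 45.9 ± 5.91 in DKD (SD, n = 2). Its log2 fold change was 0.43 (SE 0.14, adjusted p = 0.388 by limma), with an unadjusted p under the threshold but a ratio of 1.35, under the fold threshold. HBEGF was at 33.7 ± 2.28 and 47.4 ± 13.1 FPKM, a log2 fold change of -0.46 with a 95% interval of -0.93 to 0.01 by limma. For AREG the log2 fold change was 0.08 with an interval of -0.70 to 0.87, which includes changes of 1.5 times either way. That of EREG was wider still, at -1.30 to 3.01.

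Between KDM5C-KD and TRIM11-KD, 0 of 7 members were called, against 3.09% of genes higher and 2.28% lower. AREG was at 14.9 ± 2.59 and 20.3 ± 5.37 FPKM (SD, n = 2), and its difference was -0.41 log2 units with a limma interval of -1.19 to 0.38. Between DKD and TRIM11-KD, 1 member was called. HBEGF rose from 31.3 ± 0.0484 FPKM in TRIM11-KD to 47.4 ± 13.1 in DKD (SD, n = 2), a ratio of 1.52. The log2 fold change was 0.56 (SE 0.19, adjusted p = 0.702 by limma), with both DKD lines above both TRIM11-KD lines. How many of all genes had their lines separated in this way was not counted. Of all genes 1.67% were called higher and 1.62% lower here. The call was lost without the library labelled DKD1, where the log2 fold change was 0.28, and without TRIM11-KD1 or TRIM11-KD2, where it was 0.56 both times. After adjustment over all 12636 genes 0 passed in any of these comparisons, by limma. Without adjustment a p under 0.05 was reached by 1473 genes (11.7%) for KDM5C-KD against DKD, 1241 (9.82%) for KDM5C-KD against TRIM11-KD and 888 (7.03%) for DKD against TRIM11-KD.

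The other genes of the pathway were taken from a list of 53, of which 46 could be tested in cells. The 4 that were at least 1.5 times below Control in all 6 knockdown libraries were SPRY1, SPRY2 and SPRY4, inhibitors of receptor tyrosine kinase signalling, and ETV1, an ETS factor. SPRY1 was at 12.1 FPKM in Control and 1.60 to 6.34 in the knockdown libraries, SPRY2 at 68.7 and 25.0 to 44.3, SPRY4 at 24.1 and 11.1 to 15.1, and ETV1 at 12.0 and 1.95 to 5.80. These 4 were picked for lying below Control in every knockdown library, so their shared direction is no further result beside that of AREG. Of all genes tested, 0.91% were 1.5 times lower in all 6, and the same 1 Control library enters each ratio. In both lines of TRIM11-KD 6 of 46 genes were 1.5 times lower and 1 was higher, beside 2.58% and 3.25% of all genes. In KDM5C-KD 8 were lower and 1 higher, beside 3.97% and 5.22%, and in DKD 8 were lower and 0 higher, beside 4.87% and 5.71%. The lower ones beside these 4 were DUSP6 and SPRED3 in TRIM11-KD, CCND1, DUSP4, ERRFI1 and SPRED3 in KDM5C-KD, and DUSP4, DUSP6, EGR1 and PIK3R1 in DKD. IER3, an immediate early gene, was the higher one, at 35.8 FPKM in Control and 57.3 to 88.8 in TRIM11-KD and KDM5C-KD. The median log2 ratio over the 46 genes was -0.10 in TRIM11-KD, -0.17 in KDM5C-KD and -0.18 in DKD, beside -0.02, -0.01 and -0.01 over all genes.

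Between the knockdowns few genes of the list were called. In KDM5C-KD against DKD, 3 of 46 were called higher and 1 lower, beside 3.41% and 3.33% of all genes. DUSP6, the ERK phosphatase, was at 60.0 and 72.0 FPKM in the KDM5C-KD lines and 37.1 and 25.9 in the DKD lines, a log2 fold change of 1.06 (SE 0.26, adjusted p = 0.379 by limma). EGR1, an early ERK target, was at 49.6 and 156.6 FPKM in KDM5C-KD and 21.8 and 27.9 in DKD, a log2 fold change of 1.80 (adjusted p = 0.379 by limma). CBLB, a ubiquitin ligase of the receptors, was also higher, by 0.63, and SPRY1 was lower, by -0.83. EGR1 belongs to the immediate early genes that respond to handling, and 8 of 9 tested genes of that list had a positive difference, with a median log2 fold change of 0.44 beside 0.00 over all genes. The part of handling in the EGR1 result was not tested. In KDM5C-KD against TRIM11-KD, 0 were higher and 2 lower, SHC1 and ERRFI1, by -0.59 and -0.63, beside 3.09% and 2.28% of all genes. In DKD against TRIM11-KD, 1 was higher, ETV4 by 0.65, and 2 were lower, CBLB and EGR1 by -0.54 and -1.46, beside 1.67% and 1.62% of all genes. The calls of DUSP6 and EGR1 in KDM5C-KD against DKD were kept without any 1 line, though the log2 fold change of EGR1 was 0.98 without KDM5C-KD2 and 2.62 without KDM5C-KD1. That of CBLB was lost without KDM5C-KD2 (0.50) or DKD1 (0.54) and that of SPRY1 without KDM5C-KD2 (-0.46), DKD1 (-0.84) or DKD2 (-0.82), these being log2 fold changes. SHC1 lost its call without TRIM11-KD2 (-0.50) or KDM5C-KD2 (-0.41), ERRFI1 without any 1 of the 4 lines compared (-0.71 to -0.55), ETV4 without TRIM11-KD1 (0.42), DKD1 (0.71) or DKD2 (0.59), CBLB in DKD without TRIM11-KD1 (-0.38) or DKD1 (-0.46), and EGR1 in DKD without TRIM11-KD1 (-1.30), TRIM11-KD2 (-1.61) or DKD1 (-1.28). With no filter on low values the calls of SPRY1, ERRFI1, ETV4 and, in DKD, EGR1 were lost, and that of ETV4 also without a trend in eBayes. Of the neuregulins and the other ligands on the list, NRG1 alone could be tested in cells, and it was at 18.1 to 20.0 FPKM in Control and the 3 lines numbered 1 and at 8.12 to 12.4 in those numbered 2.

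**Figure D3:**
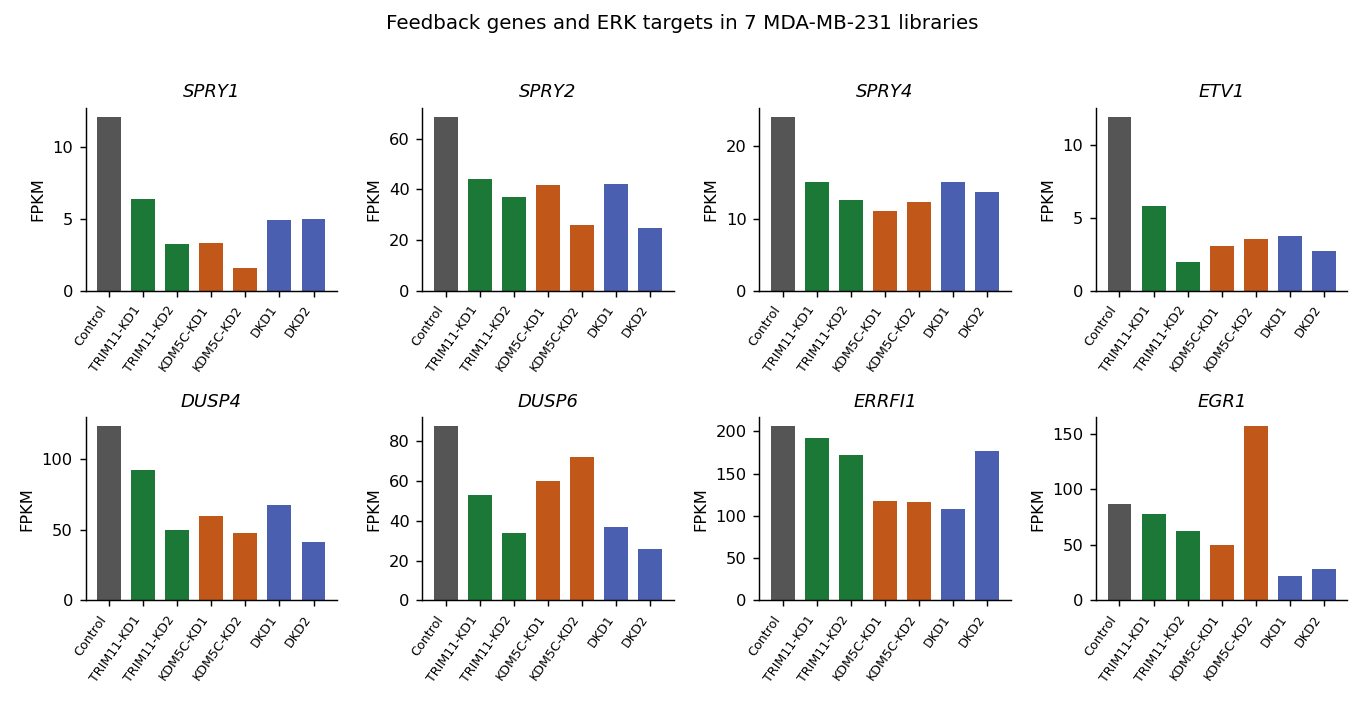
FPKM (vertical axes from 0) of 8 genes of the pathway list in the 7 MDA-MB-231 libraries, chosen for display after their values were seen. The Control bar is the highest for each gene but EGR1, which is highest in KDM5C-KD2 at 156.6. Of the 46 tested genes of the list, 16 were below Control in all 6 knockdown libraries, beside 16.1% of all genes. The 5 above Control in all 6, beside 13.6% of all genes, were GRB2, BRAF, FOSL1, MYC and IER3, which are not shown.

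In tumors the question was how the members stood with 1 copy of Trim11. Tgfa, a ligand of Egfr, was the 1 of 8 tested members that was called, and it was lower. It measured 4.70, 3.99 and 3.25 FPKM in Trim11+/+ tumors 1, 2 and 3 and 3.04, 2.59 and 2.31 in Trim11+/- tumors 1, 2 and 3, so that the groups did not overlap. The mean fell from 3.98 ± 0.720 to 2.65 ± 0.366 FPKM (SD, n = 3), a ratio of 0.665. The log2 fold change was -0.44 (SE 0.16, adjusted p = 0.687 by limma). Of 17328 genes, 1.87% were called lower and 1.74% higher, and 6.78% were lower in every Trim11+/- than in every Trim11+/+ tumor. The exact permutation test gave p = 0.1, the smallest possible. The ratio lay just past 1.5 times, and the call was lost under scaling by median ratios and without any 1 of 4 tumors, Trim11+/+ tumor 1 or 2 or Trim11+/- tumor 2 or 3, with log2 fold changes of -0.34, -0.44, -0.44 and -0.38. Gm43917 overlaps an exon of Tgfa on the opposite strand, as Mien1 does for Erbb2 and Gm19610 for Ereg, and reads of each pair cannot be told apart there. The summed level of the 7 basal and myoepithelial markers moved with the genotype too. It was 344, 141 and 202 FPKM in Trim11+/+ and 98.4, 65.5 and 94.4 in Trim11+/-, with Krt5 at 29.2 to 104.6 and 7.14 to 18.8. Acta2, at 21.6 to 138 and 17.0 to 27.0 FPKM, and Myh11, at 1.23 to 13.5 and 1.23 to 2.18, overlapped between the genotypes. The other markers of this list did not overlap. The part of these markers in the Tgfa result was not tested, and in bulk tumors fewer cells of a type and less RNA per cell cannot be told apart.

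Areg was high in 1 tumor only. It was at 0.753, 22.7 and 0.820 FPKM in Trim11+/+ tumors 1, 2 and 3, from 10, 280 and 10 reads, and at 1.55, 1.59 and 1.30 FPKM in Trim11+/- tumors 1, 2 and 3, from 21, 17 and 17 reads. Trim11+/+ tumor 2 was 28.8 times the mean of the other 2 Trim11+/+ tumors, and those 2 were the lowest of all 6. The exact Poisson 95% interval, which covers counting error only, was 20.1 to 25.5 FPKM for tumor 2, 0.361 to 1.39 for Trim11+/+ tumor 1 and 0.962 to 2.38 for Trim11+/- tumor 1. With all tumors the log2 fold change of Trim11+/- against Trim11+/+ was -0.77 (SE 0.98, adjusted p = 0.893 by limma). Without Trim11+/+ tumor 2 it turned to 0.47 (adjusted p = 0.831 by limma), past both thresholds of a call, and the mean of 1.48 ± 0.157 FPKM in Trim11+/- (SD, n = 3) was 1.88 times the 0.787 ± 0.0473 of the remaining tumors. The direction for Areg therefore rested on that tumor.

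Trim11+/+ tumor 2 also had the highest sum of hormone-sensing luminal markers, a cell type that is known to make Areg. All 8 were found, and their sum was 31.3 FPKM there, 22.9 and 22.2 in Trim11+/- tumors 1 and 2 and 7.13 to 11.5 in the other 3. Tnfsf11 was at 4.14 FPKM there against 0 to 0.356 elsewhere, Pgr at 1.42 against 0.0643 to 0.432, and Cited1 at 8.86 against 0.0522 to 4.87. Esr1 was highest there as well, so 4 of the 8 markers were, while Foxa1, Prlr and Wnt4 were higher in another tumor and Greb1 was lowest there, at 0.0205 FPKM. Adipocyte markers were also highest in this tumor, with a sum of 66.6 FPKM beside 3.50 to 51.0. Trim11+/- tumor 1 had sums of 22.9 and 51.0 FPKM for these 2 lists and Areg at 1.55 FPKM. Whether these cells account for Areg in tumor 2 was not tested. The 3 genes whose pattern over the 6 tumors was most like Areg, among 15207, were Trbd1, Rbp4 and Gm11413, with root mean square differences of 0.24, 0.37 and 0.42 log2 units. Trbd1 rested on 1 read in all tumors, while Rbp4, a retinol carrier, had 92 reads in Trim11+/+ tumor 2 and 2 to 6 in the others.

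**Figure D4:**
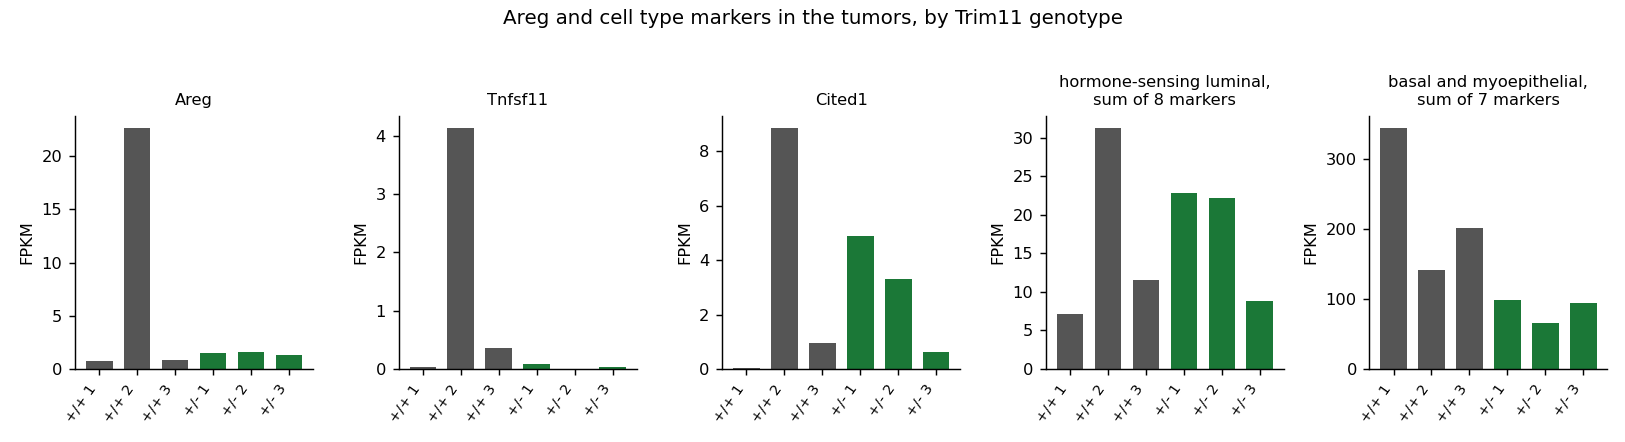
FPKM (vertical axes from 0) of Areg, of Tnfsf11 and Cited1, and of the summed hormone-sensing luminal and basal and myoepithelial markers, 1 bar a tumor, with Trim11+/+ in grey and Trim11+/- in green. Areg, Tnfsf11 and Cited1 are highest in Trim11+/+ tumor 2, at 22.7, 4.14 and 8.86, and the 3 basal sums of Trim11+/+ are above the 3 of Trim11+/-. Tnfsf11 and Cited1 were chosen for display after their values were seen.

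The remaining ligands overlapped between the genotypes. Hbegf was at 0.738, 1.06 and 1.55 FPKM in Trim11+/+ and 1.32, 1.15 and 1.19 in Trim11+/-, from 39 to 75 reads. Btc, at 1.57 ± 0.337 and 1.59 ± 0.119 FPKM (SD, n = 3), had a log2 fold change of 0.02 with a limma 95% interval of -0.35 to 0.39. Ereg was nearly undetected, with 0, 0 and 3 reads in Trim11+/+ and 1, 0 and 1 in Trim11+/-. In the tumors without a read the exact Poisson 95% interval reached up to 0.0818 to 0.102 FPKM, so a difference in Ereg was not detectable at this depth. As in human, Ereg and Areg are neighbours in mouse, on chromosome 5 of mm10 with 45952 bases between them, yet the tumor with 280 reads of Areg had 0 of Ereg.

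Among the receptors, Erbb4, which binds neuregulins and several of the EGF ligands, was higher in every Trim11+/- tumor without passing the test. It was at 0.400, 0.454 and 0.452 FPKM in Trim11+/+, from 54, 57 and 56 reads, and at 0.561, 0.746 and 0.881 in Trim11+/-, from 77, 81 and 117 reads. The means were 0.435 FPKM in Trim11+/+, under the 0.5 FPKM filter, and 0.729 in Trim11+/-, a ratio of 1.68. Erbb4 thus passed the filter only through the Trim11+/- tumors, and the filter favours this direction. Of all genes, 6.6% were higher in every Trim11+/- than in every Trim11+/+ tumor. The log2 fold change was 0.26 on the log2(FPKM + 1) scale, which understates it at such low levels (adjusted p = 0.782 by limma), and the exact permutation test gave p = 0.1. With limma voom on the reads recovered from the FPKM values the log2 fold change was 0.71 (adjusted p = 0.683 by limma voom) and Erbb4 was called, after the same filter. Erbb2 was at 15.4, 15.4 and 14.3 FPKM in Trim11+/+ and 20.2, 20.4 and 14.2 in Trim11+/-, so that Trim11+/- tumor 3 lay below every Trim11+/+ tumor and the other 2 above. Its log2 fold change of 0.25 had a limma 95% interval of -0.12 to 0.61. Egfr, at 7.45 ± 1.71 and 6.91 ± 1.16 FPKM (SD, n = 3), and Erbb3, at 25.1 ± 4.72 and 27.0 ± 7.50, overlapped, with intervals of -0.54 to 0.37 and -0.44 to 0.61. In tumors Erbb3 was the highest receptor in each library, followed by Erbb2, Egfr and Erbb4. The tables of cells and tumors were normalized separately, so only the order within each can be read.

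**Figure D5:**
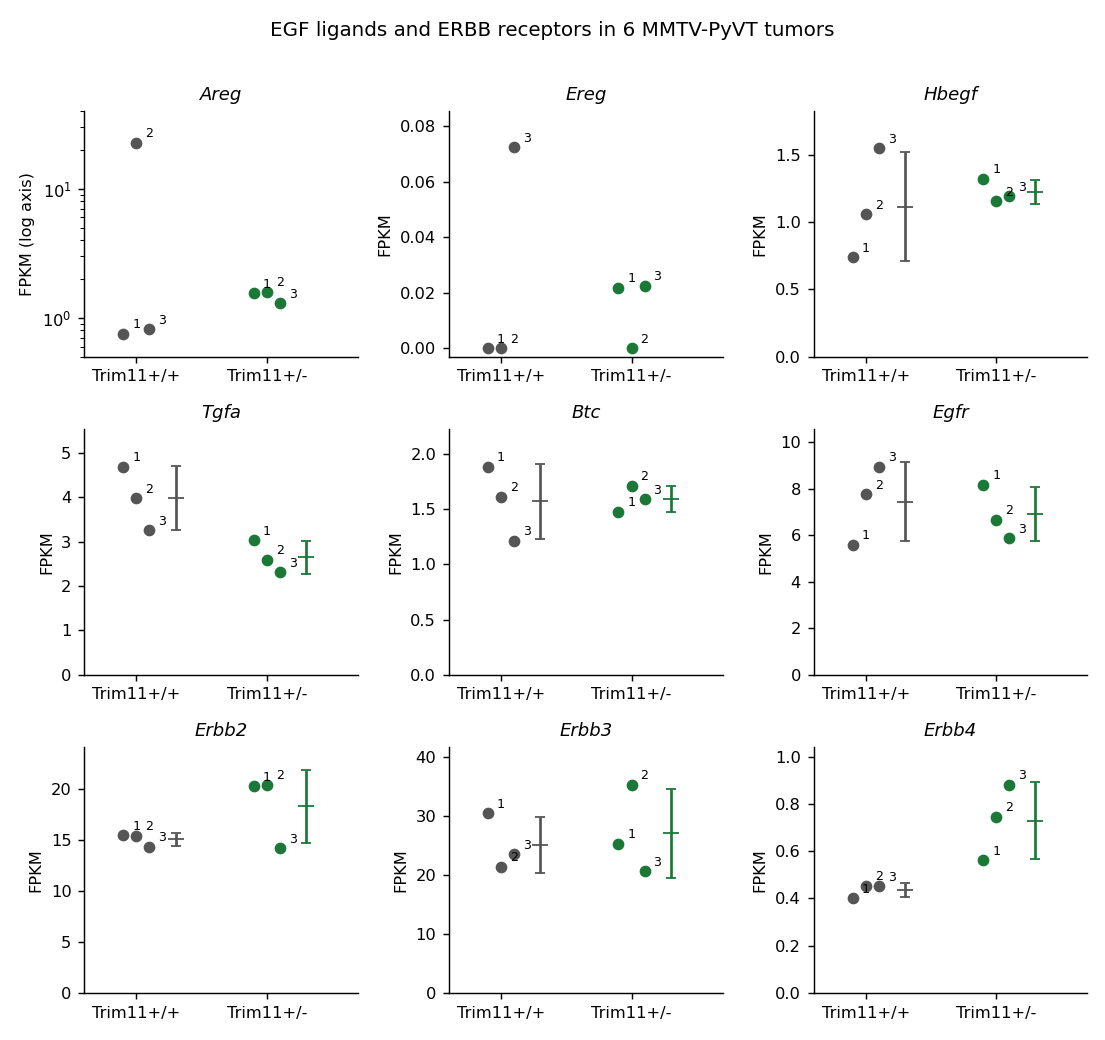
FPKM (vertical axes) of the 9 members in 3 Trim11+/+ (grey) and 3 Trim11+/- (green) tumors, numbered by replicate, with the mean and SD beside the points except for Areg, on a log axis, and Ereg. Tgfa and Erbb4 are the members whose groups do not overlap, and Areg has 1 tumor at 22.7 with the others at 0.753 to 1.59.

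Of 51 pathway genes tested in tumors, 0 were called higher and 1 lower, beside 1.74% and 1.87% of all genes, so the count was near that background. Ccnd1, the cyclin D1 gene that growth factors induce, was at 71.2, 38.2 and 49.0 FPKM in Trim11+/+ and 31.9, 37.2 and 31.6 in Trim11+/-. It fell with a log2 fold change of -0.60 (SE 0.22, adjusted p = 0.699 by limma). The groups did not overlap, though they came as near as 38.2 and 37.2 FPKM. Of all genes, 6.78% were lower in every Trim11+/- than in every Trim11+/+ tumor. The call of Ccnd1 was lost without Trim11+/+ tumor 1 (-0.36) or 3 (-0.63) or Trim11+/- tumor 1 (-0.56) or 3 (-0.56). The 4 other ERBB ligands with enough expression, Egf, Epgn, Nrg2 and Nrg4, were not called, and Nrg2 was the highest of them at 5.92 to 13.6 FPKM. The median log2 fold change over the 51 genes was -0.02, and 0.00 over all genes. The immediate early genes had a median of -0.46, with 9 of 10 lower in Trim11+/-, and the summed basal markers given above moved with the genotype as well; their part in the Ccnd1 result was not tested. By limma 1 of 17328 genes (0.00577%) passed after adjustment, and it was not a member or a pathway gene, while 1202 (6.94%) had an unadjusted p under 0.05.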

How the data were processed

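RNA-Seq libraries of poly(A) RNA, made without strand information, gave 7 MDA-MB-231 and 6 tumor samples. The authors removed adaptors with Cutadapt, mapped reads with HISAT2 to hg19 or mm10, and deposited 1 table of FPKM values a set, for which the methods name Cufflinks. Per the labels' processing notes, Bowtie 0.12.2 is also listed.

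Members, gene lists and tests were chosen with earlier results of these data known. Rows sharing a symbol were reduced to the one with the highest mean, and 27 human symbols turned into dates were dropped. Genes with a mean of at least 0.5 FPKM were tested with limma 3.58.1 in R 4.3.3 (lmFit, eBayes with a trend) on log2(FPKM + 1), where a fold change of a low gene is understated, and Benjamini-Hochberg adjustment was used. Control, with 1 library, was compared by ratios only. All 9 members were named, with pathway genes that were called, the 3 genes nearest in pattern to the member with the widest range, and the targeted genes. Marker lists and the pathway list were written from general knowledge.

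Tumor FPKM values were whole reads over GENCODE M21 exon lengths for 98.8% of genes (tolerance 0.02 reads), with totals of 8793199 to 11117125 reads a tumor. The cell line table carries no read numbers, so its depth is unknown. Replicate numbers did not pair the tumors. The script was tested on simulated data. Python 3.11.15, scipy 1.17.1 and BLAST 2.17.0 were used, promoters came from RefSeq GRCh38.p14, and positions from GENCODE. Alternatives were a pseudocount of 0.1, a mean FPKM of at least 1 or no filter, median-ratio scaling, no trend, a replicate block, a fold of 2, voom on recovered reads, only the groups compared, the mean of both lines, and each replicate left out.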

Additional observations from a re-analysis of the deposited data

Results flagged for a closer look

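AREG and HBEGF in the TRIM11-KD lines and their mouse counterparts in the Trim11+/- tumors lay on opposite sides of their control level, in every sample of each set. The library labelled TRIM11-KD1, which had the highest AREG ratio, had TRIM11 mRNA at 13.4 FPKM against 12.6 in Control. The mean log2 ratio to Control of AREG in the 2 TRIM11-KD lines was 1.71, and that of Areg in the 3 Trim11+/- tumors to the Trim11+/+ mean was -2.45. The latter rests on Trim11+/+ tumor 2, without which every Trim11+/- tumor was above the remaining Trim11+/+ tumors. For HBEGF the mean log2 ratio was -0.11 in the TRIM11-KD lines, and for Hbegf it was 0.13 in the Trim11+/- tumors. The Trim11+/- tumors lay within the range of the Trim11+/+ tumors for Hbegf. Both TRIM11-KD lines, at 31.3 FPKM, were the lowest of the 7 libraries for HBEGF, with KDM5C-KD2 at 32.0 and Control at 33.9. The difference between cells and tumors was not tested in either case, since Control is 1 library and the tables were normalized separately.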

How the results depend on the processing

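Median-ratio scaling and a fold of 2 each left 0 members called lower in tumors (Tgfa was lost), voom on recovered reads gave 1 higher (Erbb4), and leaving out 1 tumor gave 0 to 1 in either direction. Leaving out 1 line gave 0 to 1 members higher and 0 to 1 lower in KDM5C-KD against DKD (EREG without DKD1, HBEGF without DKD2), and 0 to 1 higher and 0 to 2 lower in DKD against TRIM11-KD (AREG and EREG without DKD1). With no filter, BTC gave 1 lower in KDM5C-KD against DKD and 2 higher with HBEGF in DKD against TRIM11-KD, where a fold of 2 left 0. Against Control, no filter gave 2 lower in TRIM11-KD and 2 in KDM5C-KD (ERBB4 and BTC) and 2 higher in DKD (AREG and BTC). A fold of 2 left 1 higher in KDM5C-KD and 0 in DKD, and the mean of both lines gave 2 higher in TRIM11-KD (AREG and EREG). Single lines gave 1 to 2 higher in TRIM11-KD, 2 to 3 higher in DKD and 0 to 1 lower in DKD. For alternatives other than fewer samples or a changed threshold, the cause was not tested.

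In the replicate block fit no member changed its call: 0 higher and 1 lower in tumors, 0 and 0 in KDM5C-KD against DKD and against TRIM11-KD, and 1 and 0 in DKD against TRIM11-KD. Deviations of same-numbered tumors correlated at -0.33, 0.04 and -0.13, and those of lines at 0.27, 0.09 and 0.37. With 2 lines a group the deviations mirror each other, so each comparison of lines gives only 1 such value. The numbers match KDM5C-KD1, with KDM5C guide 1, to the library labelled DKD1, which carries KDM5C guide 2. The block ended the call of Ccnd1 at the same log2 fold change of -0.60.

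The direction of some uncalled members turned when 1 library was left out. In tumors the log2 fold change then ran from -0.25 to 0.046 for Egfr, -0.12 to 0.26 for Erbb3, -1.40 to 0.47 for Areg, -0.043 to 0.23 for Hbegf and -0.084 to 0.11 for Btc. In KDM5C-KD against DKD it ran from -0.10 to 0.020 for ERBB2, -0.33 to 0.60 for ERBB3, -0.34 to 0.51 for AREG and -0.48 to 2.19 for EREG. In KDM5C-KD against TRIM11-KD it ran from -0.064 to 0.46 for ERBB3, -0.70 to 0.78 for EREG and -0.068 to 0.079 for TGFA, which was also -0.0046 under median-ratio scaling. In DKD against TRIM11-KD it ran from -0.40 to 0.53 for ERBB3 and -2.15 to 0.52 for EREG. Over all alternatives for single genes, 420 kept direction and call, 48 lost the call, 5 gained it and 24 reversed. The 420 include genes that were uncalled and stayed so. A fold of 2 reuses the main fit, so an uncalled gene cannot change there. Depth limits Areg, Ereg, Hbegf, Btc and Erbb4 in tumors and cannot be judged in cells.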
